A study of Vitis vinifera with 2 samples.

Results

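The callus-only 24 nt siRNA clusters were stretches of the grapevine genome where 24 nt small RNAs were clustered in embryogenic callus (EC) and where the leaf library had no cluster of any size. A cluster is a stretch into which mapped small RNAs were joined, and its DicerCall is the predominant fragment size within it. The members were chosen by their measured DicerCall, length and position, as the EC clusters with a DicerCall of 24, a length under 500 bp and not 1 bp of overlap with any leaf cluster. There were 145258 of them among the 317444 clusters of both tissues. They made up 63.8% of the 227847 EC clusters and 82.7% of the 175575 EC clusters with a DicerCall of 24. EC consists of cultured cells that have lost their differentiation and can give rise to embryos. It was raised here in the dark from anthers of *Vitis vinifera* cv. 'Chardonnay'. The comparison tissue was young leaf of the same vines. There was 1 small RNA library per tissue, each from pooled material, and both lists lie on the 33 sequences of the PN40024 12X assembly.

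In plants, small RNAs of 24 nt are the guides of RNA-directed DNA methylation (RdDM), which keeps transposable elements and other repeats silent, and are then called heterochromatic siRNAs (het-siRNAs). An Argonaute protein such as AGO4 carries the siRNA to a matching locus, where the methyltransferase DRM2 adds methyl groups to cytosines, also in the CHH context. The siRNAs are cut by DCL3 from double-stranded RNA that depends on RNA polymerase IV and RDR2. Since their source is double stranded, the siRNAs of a locus can map to both strands of the genome.

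Being without a leaf cluster was no more frequent among the 24 nt clusters than in the rest of the EC list. Of the 173633 EC clusters with a DicerCall of 24 and under 500 bp, 83.7% (95% interval 83.5 to 83.8) had no leaf overlap. The share was 83.9% over all EC clusters, and 85.6% among the 52122 EC clusters under 500 bp with other DicerCalls. The remaining 28375 EC 24 nt clusters under 500 bp met a leaf cluster and are called shared clusters below. In the other direction, 28904 of 53199 leaf 24 nt clusters under 500 bp, or 54.3% (53.9 to 54.8), met no EC cluster and are called leaf-only. The 2 lists differ in number, and reads per cluster were unknown. A locus without a leaf cluster may therefore have had leaf reads too few to be clustered, and an absent siRNA locus and one sampled by too few of the mapped leaf reads cannot be told apart. All intervals are exact 95% intervals that cover the counting of clusters only, and with 1 library per tissue no difference was tested.

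The length limit and the overlap limit both cut through a continuum. There were 87 members of 490 to 499 bp, of which 92.0% had no strand assigned. Just outside, 79 EC 24 nt clusters of 500 to 509 bp also lacked a leaf cluster, and 91.1% of them had no strand. In all, 1942 EC 24 nt clusters had 500 bp or more, and 1225 of these (63.1%, 60.9 to 65.2) met no leaf cluster. At the overlap limit, 55 members began or ended 1 bp from a leaf cluster, whereas 42 shared clusters overlapped one by 1 bp. Of the shared clusters, 545 (1.92%) overlapped the leaf cluster taken as nearest by 10 bp or less, and 6143 (21.6%) by 24 bp or less. The second count is not of marginal overlaps alone. It includes 1119 shared clusters that were themselves 24 bp long, and overlaps with leaf clusters of that length were not set apart.

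Callus-only clusters were short. Their median length was 90 bp with quartiles of 44 and 141 bp, and their mean was 107 bp (SD 80.6, n = 145258 clusters). Together they covered 15.6 Mb. The median was 115 bp (quartiles 62 and 187 bp) in shared clusters, which covered 3.89 Mb, and 58 bp (28 and 108 bp) in leaf-only clusters, which covered 2.25 Mb. The shortest members, of exactly 24 bp, were also the most frequent single length, with 9518 clusters (6.55%). A further 3337 members were 25 bp long and 2127 were 26 bp long, so that 15.2% of members spanned 30 bp or less. At 24 bp a cluster spans the position of a single 24 nt siRNA. The share at exactly 24 bp was 3.94% in shared clusters and 15.8% in leaf-only clusters. At the other end, 12.4% of members reached 200 bp, compared with 22.1% of shared clusters and 5.16% of leaf-only clusters.

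Above the shortest lengths the number of members per bp of length fell to 694 at 47 bp. It then rose slowly up to 121 bp and dropped in a single step. There were 885 members of 121 bp and 557 of 122 bp. Over the 20 lengths from 102 to 121 bp there were on average 852 members per bp of length, and over the 20 lengths from 122 to 141 bp there were 501. The same step was present in the shared clusters, at 150 and 110 per bp, and in the leaf-only clusters, at 146 and 73.3 per bp. The length of 121 bp equals that of 2 siRNAs of 24 nt with 73 bp between them, and 74 bp was also the smallest gap found in number between clusters of the lists. Members of 121 bp or less numbered 98959, or 68.1% (67.9 to 68.4). They thus had no more length than 2 siRNA positions of 24 nt with 73 bp between them. Shared clusters fell in that range in 53.6% (53.0 to 54.2) of cases, and leaf-only clusters in 82.1% (81.6 to 82.5). Among the 46299 members longer than 121 bp, a limit chosen after the lengths were seen, 73.6% had no strand assigned. The padding used to join reads was not given in the sources used here, and its part in the step was not tested.

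**Figure D1:**
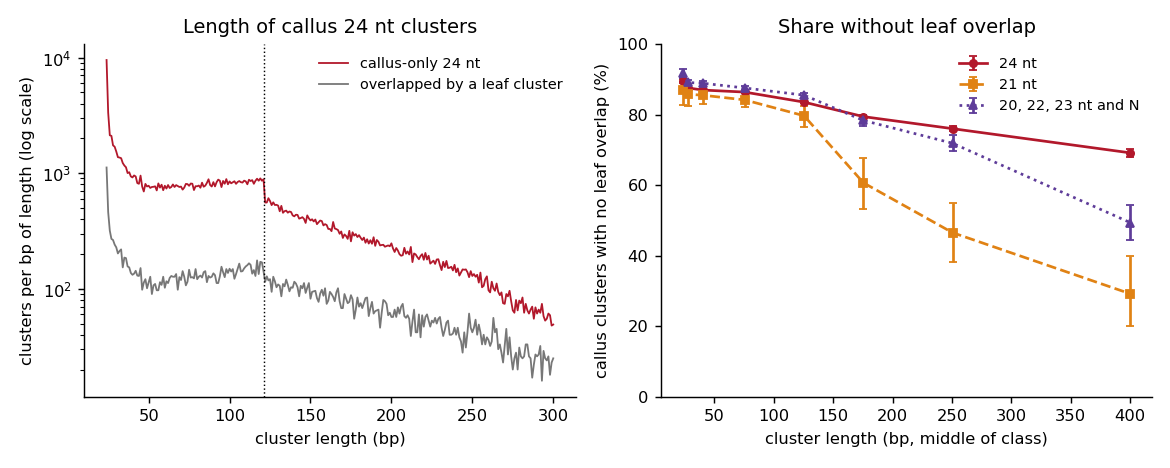
Left, number of clusters per bp of length on a log scale against cluster length, for callus-only 24 nt clusters (red) and for EC 24 nt clusters overlapped by a leaf cluster (grey), from 24 to 300 bp. Both lines peak at 24 bp, fall, rise slowly and drop at the dotted line after 121 bp. There are 885 callus-only clusters at 121 bp and 557 at 122 bp. Right, percent of EC clusters under 500 bp without leaf overlap in each of 8 length classes, by DicerCall, with exact 95% intervals as bars. All 3 lines decline with length, and the 24 nt line ends highest, at 69.1%, where the 21 nt line ends at 29.2%.

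The share of EC 24 nt clusters that were callus-only declined with cluster length. It was 89.5% at 24 bp, 86.4% from 51 to 100 bp, 79.4% from 151 to 200 bp and 69.1% (68.0 to 70.2) from 301 to 499 bp. A longer cluster has more bases in which a leaf cluster can overlap it, so length and membership were not independent. Over the same length classes the decline was of another size in the other DicerCalls. Length within a class and the number of leaf clusters nearby were not matched, and the cause of the difference was not tested. In the paper, the size of 21 nt is tied to post-transcriptional silencing and also to a non-canonical form of RdDM. Among EC clusters of 21 nt, the share without leaf overlap was 87.1% at 24 bp. From 301 to 499 bp, where there were only 89 such clusters, the share was 29.2% (20.1 to 39.8). Among EC clusters of 20, 22, 23 nt or N it was 91.8% and 49.4% (44.4 to 54.4) in the same classes. In the longest class, then, the 3 intervals did not overlap, whereas from 51 to 100 bp the shares were 86.4%, 84.2% and 87.5% for 24 nt, 21 nt and the other DicerCalls.

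No strand was assigned to most callus-only clusters, meaning that their reads mapped to both strands without 1 strand predominating. This was the case for 78596 members, or 54.1% (53.9 to 54.4), while 34673 (23.9%) were assigned to the plus and 31989 (22.02%) to the minus strand. Over all lengths the share without a strand was 58.3% (57.8 to 58.9) in shared clusters and 43.9% (43.4 to 44.5) in leaf-only clusters. The order of these 3 values followed the order of the median lengths, and length and strand were closely tied. Among members, 3.29% had no strand at 24 bp, 23.2% from 25 to 30 bp, 45.3% from 31 to 50 bp and 55.4% from 51 to 100 bp. The share went on to 63.3% from 101 to 150 bp, 71.2% from 151 to 200 bp, 77.5% from 201 to 300 bp and 85.2% from 301 to 499 bp. The number of reads behind a cluster could not be separated from its length.

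At equal length the callus-only clusters were slightly more often without a strand than the shared ones in 7 of the 8 classes. From 201 to 300 bp the shares were 77.5% (76.7 to 78.2) in callus-only and 75.3% (73.9 to 76.6) in shared clusters. From 301 to 499 bp they were 85.2% (84.2 to 86.2) in callus-only and 82.2% (80.5 to 83.8) in shared clusters. In the exception, 101 to 150 bp, they were 63.3% in callus-only and 63.8% in shared clusters. The intervals of callus-only and shared clusters were apart in both of these classes and from 25 to 30 bp, where the shares were 23.2% in callus-only and 20.3% in shared clusters. The higher overall value of shared clusters was thus not found within length classes other than 101 to 150 bp.

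**Figure D2:**
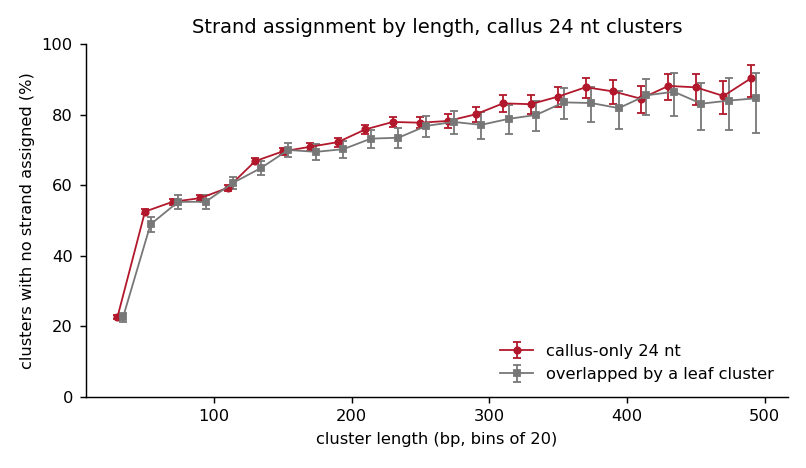
Percent of clusters with no strand assigned against cluster length in bins of 20 bp, for callus-only 24 nt clusters (red circles) and EC 24 nt clusters overlapped by a leaf cluster (grey squares, shifted slightly to the right), with exact 95% intervals as bars. Both lines climb with length and stay close to each other, with callus-only classes of 3.29% at 24 bp and 85.2% from 301 to 499 bp.

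Callus-only clusters lay close to one another. The median gap between neighbouring members on the same sequence was 971 bp with quartiles of 332 and 3063 bp, against 6826.5 bp between shared clusters and 8088 bp between leaf-only clusters. The larger number of members by itself gives smaller gaps, so the 3 medians describe lists of unequal size. Of the member gaps, 49234 (33.9%) were 500 bp or less and 8.37% exceeded 10 kb, with a largest gap of 131159 bp. Gaps of 500 bp or less made up 13.7% between shared and 11.6% between leaf-only clusters. At the lower end the gaps met a sharp floor. Only 14 member gaps were below 74 bp, whereas 421 were exactly 74 bp, and in the whole EC list 64 gaps were below 74 bp and 905 were exactly 74 bp.

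**Figure D3:**
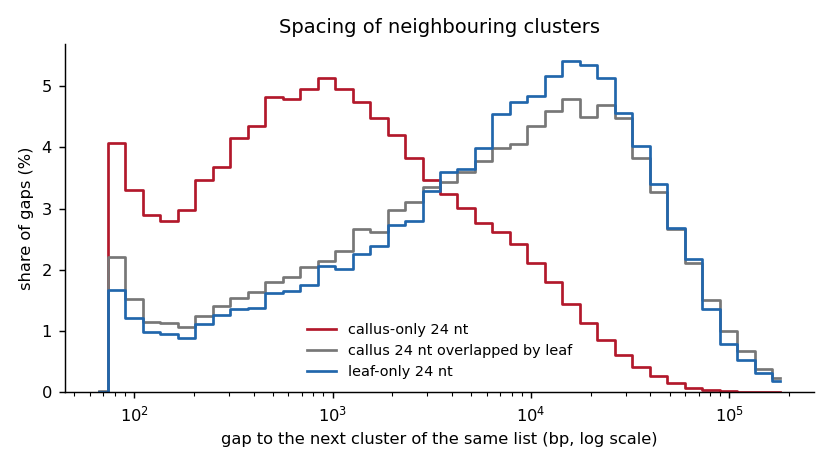
Percent of gaps to the next cluster of the same list against gap size on a log scale, for callus-only 24 nt clusters (red), EC 24 nt clusters overlapped by a leaf cluster (grey) and leaf-only 24 nt clusters (blue). All 3 lists begin abruptly at about 74 bp, with a small peak there followed by a dip. The callus-only gaps have a higher and broader peak near their median of 971 bp. The main peaks of the other 2 lists lie further right, with medians of 6826.5 and 8088 bp.

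The cluster that followed a member was slightly more often another member than the composition of the EC list gives. Members made up 63.8% of EC clusters, and they were the next EC cluster after a member in 67.2% of cases. Shared clusters followed a member in 10.6% of cases (12.5% of the list) and 21 nt clusters in 1.67% (1.98% of the list). After a shared cluster, the next EC cluster was a member in 54.2% of cases and another shared cluster in 22.3%. After a 21 nt cluster it was a member in 52.9% of cases and another 21 nt cluster in 10.4%. After a 24 nt cluster of 500 bp or more it was another of these in 9.37% of cases (0.852% of the list). Neighbours of the same kind were thus above their share of the list in all 4 kinds. The size of this difference was not compared between kinds, whose shares of the list were very unlike, at 63.8% for members and 0.852% for the long 24 nt clusters.

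Members with close neighbours were longer and more often without a strand than isolated ones. The 5170 members with another member within 200 bp on each side had a median length of 108 bp, and 60.0% of them had no strand. With both neighbours within 500 bp there were 21311 members (14.7%), with a median of 103 bp and 58.1% without a strand. The 7384 members (5.08%) whose neighbours on both sides were more than 5 kb away had a median of 74 bp, and 49.1% had no strand. Length and strand were closely tied, and the shares without a strand in these groups were not compared at equal length.

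Dense runs were defined as 10 or more successive members with gaps of at most 500 bp. Most members were in none. With the same gap, 68101 members (46.9%) stood alone, 17351 groups were pairs and 10378 groups had 3 to 9 members. There were 194 dense runs, which held 2362 members (1.63%). A run had a median of 11 members and a median span of 3921.5 bp, with spans of 2115 to 9078 bp, and clusters covered a median of 43.1% of the span. No leaf cluster of any size lay inside 145 runs (74.7%), and 81 runs had none within 1 kb either. Members overlap no leaf cluster by the way they were chosen, so only the gaps of a run could hold one. The share of other stretches of such width without a leaf cluster was not computed. In 76 runs no other EC cluster of any DicerCall lay between the members. The number of runs depended on the definition, with 7 runs at a gap of 200 bp and 1003 at a gap of 1 kb. With members of at least 50 bp alone there were 67 runs, and 111 where a run ended at any other EC cluster.

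Strand assignment was mixed inside the runs. Of the members in runs, 62.2% had no strand, and in 136 of the 194 runs members without a strand outnumbered those with one. Of the 165 runs with at least 3 stranded members, 21 had them all on 1 strand. By the same definition, shared clusters formed 1 run and leaf-only clusters formed 0, and both lists are far shorter than that of the members. All EC 24 nt clusters under 500 bp formed 361 runs, so that many stretches rich in 24 nt clusters held shared clusters among the callus-only ones.

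The make-up of such stretches is shown for the 5 runs with most members, with ties in number settled by the shorter span. The largest was on chr9:17914962-17924039, a span of 9078 bp with 28 members. These had lengths of 26 to 319 bp (median 109.5 bp), gaps of 74 to 449 bp (median 209 bp), and covered 36.9% of the span. In it, 17 members had no strand, 9 were on the plus and 2 on the minus strand, no leaf cluster lay inside, and the nearest leaf cluster was 322 bp away. Between its members lay 4 other EC clusters, 2 of them N, 1 of 21 nt and 1 of 23 nt. The second, chr2:16510730-16519228, had 24 members of 24 to 420 bp in 8499 bp, with 15 without a strand, 7 plus and 2 minus. It held 1 leaf cluster with DicerCall N. The runs on chr1:8477789-8484281 and chr13:8265051-8271777 had 20 members each. The chromosome 1 run was the most filled of the 5, with 55.2% of 6493 bp covered, a median member length of 144 bp, and the nearest leaf cluster 801 bp outside. The chromosome 13 run covered 39.3% of 6727 bp, and its 4 other EC clusters included 1 shared cluster. The fifth, chr9:14416717-14422733, had 19 members with a shorter median length of 83 bp, covering 30.2% of 6017 bp. It was tied with runs of 19 members on chromosomes 19 and 9, in which longer members, with medians of 180 and 238 bp, covered 54.0% and 58.0% of the span. Its strands were the most even, with 11 members unstranded, 4 plus and 4 minus. An annotation of the 12X build was not used here, so the genes or transposable elements under these runs are not named.

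**Figure D4:**
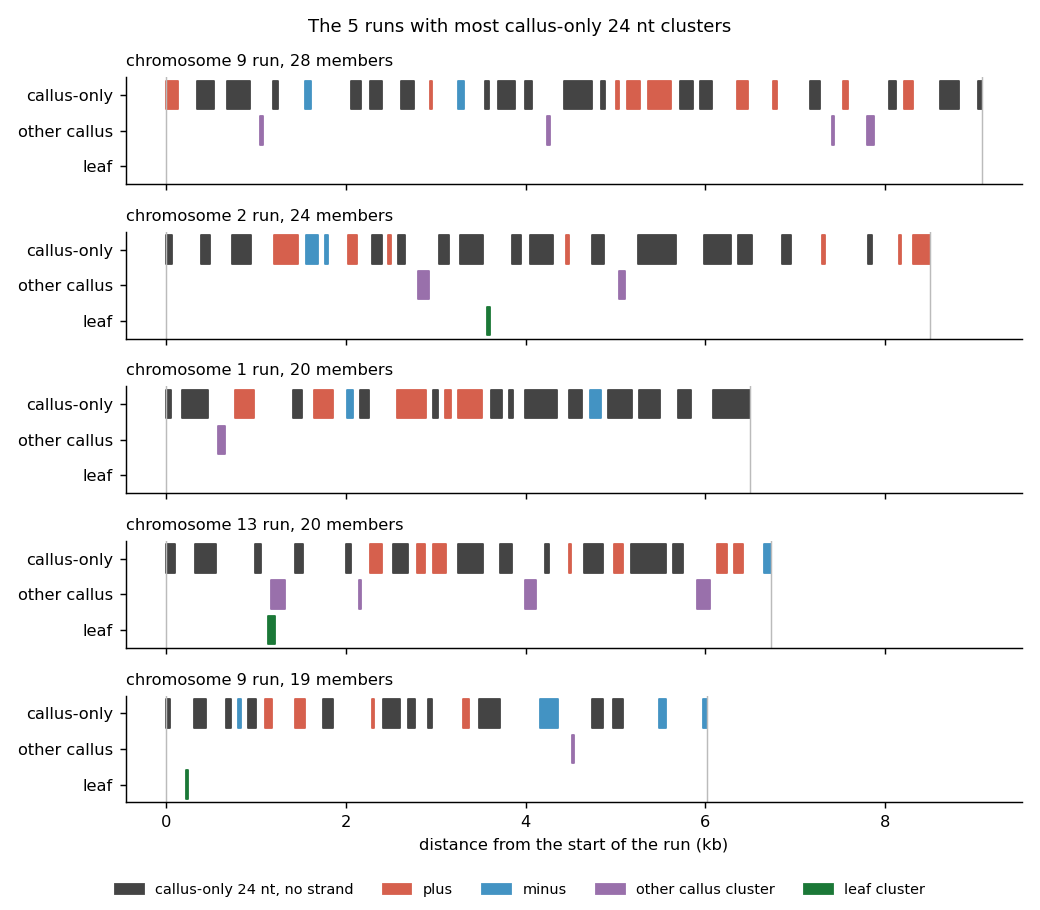
Clusters in the 5 runs with most callus-only 24 nt clusters, drawn to scale against distance from the start of each run in kb. In each panel the upper row holds the callus-only clusters (black without a strand, red plus, blue minus), the middle row other EC clusters (purple) and the lower row leaf clusters (green), and grey lines mark the run's ends. The runs have 28, 24, 20, 20 and 19 members from top to bottom, and 3 of the 5 hold a single leaf cluster. The last was chosen for its shorter span among 3 runs of 19.

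Dense runs were found on every chromosome. Chromosomes 9 and 13 had 16 each and chromosomes 11 and 19 had 14 each, while chromosome 7 had 3. Relative to the number of members this was 2.63 runs per 1000 members on chromosome 9 and 0.578 on chromosome 7. In 5 equal parts of each chromosome, summed over chromosomes 1 to 19, the runs numbered 10, 32, 45, 52 and 37 from the first to the last part, and 176 runs were on these chromosomes in all.

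Absence of a leaf cluster was used to choose the members, so their distance to leaf clusters is given as a description. The median distance to the nearest leaf cluster was 1840 bp with quartiles of 619 and 4912 bp, against 493 bp from leaf-only clusters to the nearest EC cluster. There were 227847 EC clusters and 89597 leaf clusters, and the longer list by itself gives shorter distances to it. Within 100 bp of a leaf cluster there were 4.13% of members, within 500 bp 21.3%, within 1 kb 35.0% and within 5 kb 75.4%. Beyond 10 kb there were 15327 members (10.6%). The nearest leaf cluster was itself a 24 nt cluster for 63.1% of members (59.8% of the leaf list) and a 21 nt cluster for 4.48% (6.82% of the leaf list). For shared clusters the leaf cluster was of 24 nt in 73.2% of cases and of 21 nt in 2.61%. The leaf cluster nearest to a member was thus usually a 24 nt cluster, at little more than the share of such clusters in the leaf list.

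Every member lay in a stretch without leaf clusters by the way it was chosen, and the number per stretch is given as a description. The leaf list left 89564 intervals between neighbouring clusters, of which 40564 (45.3%) held at least 1 member and 15762 held exactly 1. The 3111 intervals with 10 or more members had a median width of 21.3 kb and held 48462 members, or 33.4%. The interval with most members was chr19:18017832-18093771, where 79 members lay in 75.9 kb. It was followed by 65 members in 151 kb at chr11:12848076-12999116 and 64 in 52.6 kb at chr4:11584739-11637333, a number also reached on the unplaced sequence of chromosome 13. The 3 members farthest from any leaf cluster on the chromosomes were all in 1 such interval of chromosome 5. They were chr5:12643916-12644024 (109 bp, no strand), 135045 bp from the nearest leaf cluster, chr5:12636507-12636530 (24 bp, minus strand), 134192 bp away, and chr5:12636389-12636428 (40 bp), 134074 bp away. That interval, chr5:12502316-12779068, was 276.753 kb wide and held 54 members. It was singled out after its values were seen.

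Along the chromosomes the callus-only clusters were densest in the inner parts. Over the 5 equal parts of chromosomes 1 to 19 there were 205, 296, 359, 360 and 298 members per Mb from the first to the last part. Shared clusters had 62.4, 67.9, 50.8, 56.2 and 64.1 per Mb over the same parts, and leaf-only clusters 69.9, 66.0, 47.6, 56.9 and 67.5 per Mb. Members were thus densest in the third part and the one after it, which differed little, and both other lists were sparsest in the third. The density of the middle part relative to the mean of the first and last parts was 1.43 (1.41 to 1.45) for members, 0.804 (0.776 to 0.833) for shared and 0.693 (0.668 to 0.718) for leaf-only clusters. All EC 24 nt clusters under 500 bp, whatever the leaf library held, had 267, 363, 410, 416 and 362 per Mb. Of these, 76.7%, 81.3%, 87.6%, 86.5% and 82.3% were callus-only. Leaf clusters of any size numbered 215, 206, 149, 170 and 212 per Mb over the same parts. How EC clusters divide into callus-only and shared depends on the number of leaf clusters by construction.

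**Figure D5:**
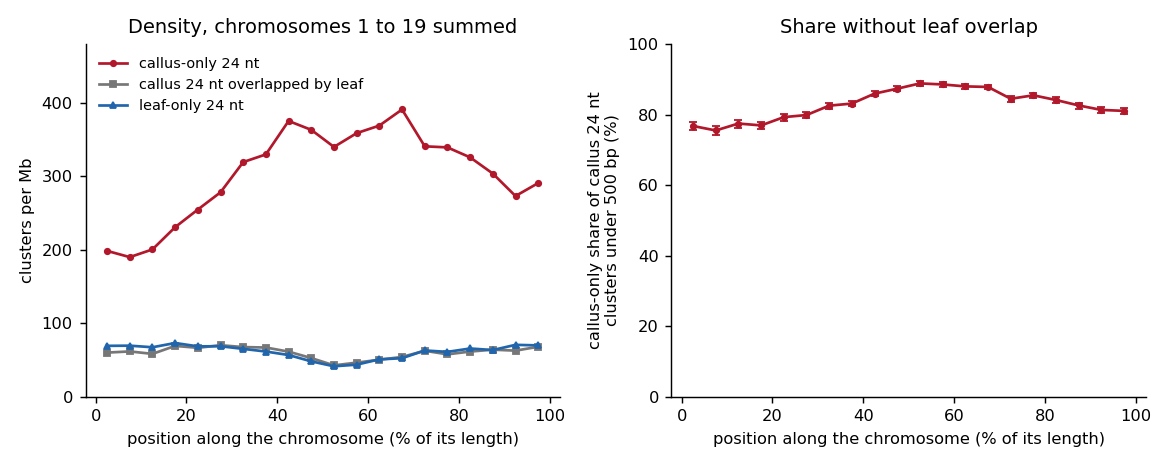
Left, clusters per Mb in 20 equal parts of the chromosomes, summed over chromosomes 1 to 19, against position as percent of chromosome length, for callus-only 24 nt clusters (red circles), EC 24 nt clusters overlapped by a leaf cluster (grey squares) and leaf-only 24 nt clusters (blue triangles). The callus-only line is highest in the inner parts and lowest near the start, while the other 2 lines dip slightly in the middle. Right, percent of EC 24 nt clusters under 500 bp that were callus-only in the same parts, with exact 95% intervals as bars, which is highest in the middle, where 2 of the 5 parts had 87.6% and 86.5%. This percentage depends on the number of leaf clusters in a part by construction.

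The length and strand of the members changed little along the chromosomes, whereas their distance to leaf clusters and to each other did not stay level. Their median length was 87, 90, 91, 91 and 89 bp over the 5 parts, and between 53.7% and 54.5% had no strand in each part. Their median distance to a leaf cluster was 1247.5, 1541, 2264.5, 2151 and 1576 bp, and the median gap between members was 1183, 981, 929, 874 and 947 bp. The single chromosomes mostly followed the sum. Members were densest in 1 of the inner 3 parts on 16 of 19 chromosomes, where 3 of the 5 parts count as inner. The densest was the second part on 4 chromosomes, the third on 4 and the fourth on 8. On chromosomes 2, 10 and 17 members were densest in the last part. The highest callus-only share was in 1 of the inner 3 on 17 of 19, with chromosomes 10 and 17 as exceptions. Positions of centromeres were not used here.

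Chromosomes differed in density more than in share. Chromosome 10 had the highest density, at 403 members per Mb, and chromosome 6 the lowest, at 223. The callus-only share was also highest on chromosome 10 (86.3%) and lowest on chromosome 6 (78.8%). Chromosomes 1 to 19 together carried 129385 members at 303.6 per Mb, with a share of 83.4%. The 13 sequences of known chromosome but unknown place within it carried 6476 members at 386 per Mb, with a higher share of 88.0% (87.3 to 88.8). The unplaced sequence chrUn carried 9397 at 218 per Mb, with a share of 83.9%.

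At the scale of 1 Mb, members per window ranged from 95 to 698 over 420 complete windows, with a median of 287.5. The richest windows were on chromosome 1 from 14 to 15 Mb with 698 members, chromosome 4 from 11 to 12 Mb with 673, chromosome 2 from 16 to 17 Mb with 665, chromosome 13 from 15 to 16 Mb with 662, and chromosome 1 from 15 to 16 Mb with 650. The window on chromosome 2 contained the second largest dense run. The poorest window was on chromosome 2 from 1 to 2 Mb with 95, followed by chromosome 8 from 20 to 21 Mb with 102, chromosome 2 from 4 to 5 Mb with 103, chromosome 16 from 21 to 22 Mb with 107 and chromosome 8 from 14 to 15 Mb with 109. Members were spread rather than concentrated, as the richest 42 windows held 18.1% of those in the windows.

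The callus-only share varied from 59.2% to 97.1% between windows, with a median of 82.3%. It exceeded 90% in 90 windows and was below 70% in 48. It was highest on chromosome 16 from 4 to 5 Mb, where 429 of 442 EC 24 nt clusters under 500 bp (97.1%, 95.02 to 98.4) had no leaf overlap. The next highest were chromosome 15 from 7 to 8 Mb with 280 of 292, chromosome 8 from 6 to 7 Mb with 171 of 179, chromosome 18 from 15 to 16 Mb with 252 of 264, and chromosome 9 from 17 to 18 Mb with 418 of 438. The last of these held the largest dense run. The share was lowest on chromosome 7 from 3 to 4 Mb, at 125 of 211 (59.2%, 52.3 to 65.9), followed by chromosome 7 from 4 to 5 Mb with 115 of 194, chromosome 2 from 4 to 5 Mb with 103 of 171, chromosome 6 from 7 to 8 Mb with 131 of 213 and chromosome 2 from 0 to 1 Mb with 110 of 177.

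Windows with fewer leaf clusters had a higher callus-only share, and the 2 of 4 equal groups of windows with fewest leaf clusters also had most members. In the group with fewest leaf clusters (20 to 143 of any size) the median window had 372.5 members and a share of 91.4%. In the following groups the medians were 333.5 members and 85.2%, then 209 members and 76.6%, and, with 235 to 402 leaf clusters, 246 members and 74.6%. A share without leaf overlap depends on the number of leaf clusters by construction, whereas the number of members per window also depends on the EC library.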

How the data were processed

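Small RNA (1 library each of EC and young leaf) was analysed from the cluster lists that the authors deposited. In the study's methods, adapters and unwanted sizes were removed with the UEA small RNA Workbench, tRNA and rRNA reads were removed with PatMaN, miRNA reads were removed, and the remainder was mapped and clustered with ShortStack, which places multi-mapping reads by nearby unique ones. This rule and the removed reads affect where clusters lie. Minimum coverage and padding were not stated in the paper or labels. The deposited values are start and end positions, with a strand and a DicerCall. No cluster had a numeric score (0 in both lists), so the reads behind each cluster were unknown, and clusters of few and of many reads counted alike. In the study's supplementary tables the EC library had fewer reads in total but more mapped siRNA reads than the leaf library. These totals were not used here.

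Clusters were read with Python 3.11, pandas 2.3.3, numpy 2.4.6 and scipy 1.17.1, and drawn with matplotlib 3.10.9. Overlap required 1 bp. Intervals of 95% were Clopper-Pearson for shares. They cover counting error only, and neighbouring clusters are not independent. The last cluster end in either list stood for the length of a sequence. Position was the cluster midpoint, in 5 or 20 equal parts or in complete 1 Mb windows. Dense runs had at least 10 members with gaps of at most 500 bp. Named were the 5 runs with most members, the 5 windows with most and fewest members, the 5 with highest and lowest share among windows of at least 100 EC 24 nt clusters, the chromosomes of highest and lowest density and share, and the 3 members farthest from leaf clusters on chromosomes 1 to 19. Methods were tested on simulated data. Members and rules were chosen with earlier results of these data known. No genome or annotation of the 12X build was used here, so sequences and genes are not given. Alternatives were a 200 bp clearance around leaf clusters, leaf 24 nt clusters alone as overlapping, a 50 bp minimum, no upper length limit, chromosomes alone, other run gaps, runs ended by any other EC cluster, and other chromosome parts.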

Additional observations from a re-analysis of the deposited data

How the results depend on the processing

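Under every alternative tried, the middle of the chromosomes held more callus-only clusters per Mb than the outer parts. The median gap stayed below that of the shared and leaf-only clusters as reported, which were not recomputed. Both of those lists were shorter than the list of members under every alternative, and this by itself gives them larger gaps. Counting a leaf cluster within 200 bp as overlapping gave a median gap of 1066 bp and a ratio of middle to outer density of 1.49, and counting leaf 24 nt clusters alone gave 919 bp and 1.39. With clusters of at least 50 bp the median length was 115 bp, 64.1% had no strand, the median gap was 1315 bp, the dense runs numbered 67 and the ratio was 1.45. With no upper length limit 54.4% had no strand and the median gap was 942 bp, and on chromosomes 1 to 19 alone the gap was 956 bp. The gap from a member to the next EC cluster of any kind had a median of 581 bp. Dense runs numbered 7 with a gap of 200 bp, 1003 with 1000 bp and 111 when ended by any other EC cluster. A limit of 122 bp, chosen after seeing the data, left 46299 clusters with a median length of 179 bp, 73.6% without a strand, a median gap of 2678 bp, 5 dense runs and a ratio of 1.46. The inner 2 of 10 parts against the outermost 2, also chosen after seeing the data, gave 1.51, since the planned division into 10 parts covered the same sequence as the 5 parts. The other 18 recomputed values stayed within 1.5 times for counts and within the interval of the reported value otherwise. The cause of these shifts was not tested, other than that a length minimum or a wider gap changes which clusters are counted by construction. No paired analysis was possible because 1 library represented each tissue. Without reads per cluster, depth per library could not be equalised, and a leaf locus with too few reads for a cluster counted as absent.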

Other observations

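Among callus-only 24 nt clusters with a strand, long ones were more often on the plus strand than on the minus strand of the assembly. Of the 19489 stranded members of more than 100 bp, 10687 (54.8%, 54.1 to 55.5) were on the plus strand, compared with 50.8% (50.4 to 51.3) of those of 100 bp or less. The share was highest from 151 to 200 bp, at 57.2% (2456 of 4294). For members of more than 100 bp it exceeded 50% on 19 of 19 chromosomes, with values of 52.7% to 58.4%, and for the shorter members it did so on 17 of 19. The long shared clusters had 54.4% (53.0 to 55.8) and the long leaf-only clusters 55.9% (54.0 to 57.7) on the plus strand. EC clusters of other DicerCalls of the same lengths had 51.2% (49.9 to 52.5). The excess was therefore present in 24 nt clusters of both libraries, and its cause was not tested.

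Neighbouring members that both had a strand were slightly more often on the same strand when close together. The share on the same strand was 54.4% (924 of 1697 pairs) at gaps of 69 to 100 bp, 55.0% from 101 to 200 bp and 54.2% (52.8 to 55.5) from 201 to 500 bp. It was 51.0% from 1001 to 5000 bp and 50.2% (48.9 to 51.4) beyond that.

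ShortStack's mark for a miRNA locus was carried by 1 of 145258 callus-only, 2 of 28375 shared and 0 of 28904 leaf-only clusters. In the study's methods, miRNA reads were removed before clustering, and no difference between the lists was tested. The marked callus-only cluster lay on chrUn from 11785731 to 11785876, was 146 bp long and on the plus strand. The leaf cluster nearest to it was 15958 bp away.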
